A study of Vanessa cardui with 14 samples.

Results

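In the hind wing of the butterfly Vanessa cardui, the painted lady, 23 of 13876 assembled genes were far lower in the larva and 72 h after pupation than from 5 d after pupation through the stages when pigment appears. They were chosen by their FPKM, which are sequenced fragments scaled by gene length and by the size of the library. A member had at least 5 FPKM in each of the 6 hind wing libraries from 5 d onward, and its mean at each of these 3 stages was at least 8 times the larger of the larval and 72 h means. Its 5 d mean lay between 0.67 and under 4 times the ommochrome mean and likewise the melanin mean, and its red and black forewing means were less than 2-fold apart. The levels over the hind wing stages and the ratio of the forewing regions are therefore a description and carry no test. The level in the forewing was not used by the choice, and is compared further on with the ommochrome and melanin hind wings. Those hind wing libraries did enter the choice, so the p-values of that comparison are not independent of it.

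A butterfly wing is a sheet of epithelium whose pupal cells include the precursors of scales. A scale precursor grows a flattened bristle-like extension, lays down a chitin cuticle on it, and is filled with pigment late in pupal life. In the painted lady the red and orange pigments are ommochromes, made from tryptophan, and the black pigment is melanin, made from tyrosine, and ommochromes appear before melanin. Genes that start before any colour is visible and stay on through both pigment stages are on while pigment appears. When scale cuticle is made was not measured in these samples. Members are known only by assembly identifiers, of which 0 were found in the reference gene list, so no member has a known name or role here.

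Forewing samples were dissected black regions and red regions, and hind wing samples were whole wings of last instar larvae and of pupae at 72 h, at 5 d before pigment was visible, when ommochromes began to show and when melanin began to show. Each of these 7 groups had 2 libraries of polyadenylated RNA, 14 in all, from unmanipulated animals with no genotype or treatment given. By their titles the forewing regions belong to the melanin stage, but by the treatment protocol they were dissected at the ommochrome stage, and the forewing is therefore set against both. The labels do not say whether replicate libraries come from different animals, so p-values reflect only the spread between these libraries, which may be technical. Summed FPKM per library ranged from 482546 to 833658, and melanin hind wing replicate 1 listed 3641 genes at 0, against 1931 to 2707 in the other libraries. The tissue labels could not be checked against marker genes, because no gene is named.

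Of the 13876 genes, 4290 reached 5 FPKM in all 6 late hind wing libraries, and 109 of those also had each late mean at least 8 times the larger early mean. Most of these 109 were left out by the 5 d level relative to the pigment stages: in 67 the 5 d mean was under 0.67 times a later mean, and in 13 it was at least 4 times a later mean. A further 6 genes met everything but the forewing condition. The lowest late library of any member was 5.16 FPKM, in c25019_g1, and the nearest gene below the limit, c8905_g1, had 4.51 FPKM. At the 8-fold limit the nearest member was c28365_g1, whose lowest late mean was 9.20 times its larger early mean, and the nearest gene outside was c26435_g5 at 7.40 times. At the low limit of the 5 d mean, c17182_g1 lay inside at 0.683 times its ommochrome mean and c24148_g3 outside at 0.634, while c22726_g1 lay inside at 0.680 times its melanin mean and c24505_g1 outside at 0.668. Toward the 4-fold limit, the 5 d mean of c27108_g2 was 3.14 times its ommochrome mean, with no gene outside that met every other condition. Against the melanin mean c24893_g3 lay inside at 3.95 times and c25222_g6 outside at 9.34 times. The forewing ratio was 1.93 in c21116_g1, just inside, and 2.13 in c23703_g1, just outside. Membership depended on scaling: with median-of-ratios factors the same conditions were met by 42 genes and with equal FPKM totals by 26, 20 of the 23 among them each time, and with a limit of 4-fold or 16-fold over the early stages by 38 or 9 genes.

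Members covered a wide range of levels, and 2 of them were among the abundant transcripts of the late wing. Gene c25846_g3 had the highest 5 d mean. Its FPKM were 26482, 29218, 25321 and 19546 in black and red forewing libraries, and 27.8, 16.7, 94.3, 2029, 25261, 24573, 19338, 18296, 14692 and 19621 in hind wings from larva to melanin, in pairs by stage. It was thus low in the larva, spread 21.5-fold between the 72 h libraries, and similar from 5 d onward. Gene c28023_g1 followed, with 5543, 6980, 5783 and 5248 FPKM in black and red forewing libraries and 5.91, 4.67, 30.9, 159.7, 4915, 4853, 4948, 4558, 3349 and 5367 in hind wings in the same order. These 2 genes shared the higher value in 72 h replicate 2. The 23 members together made up 5.40%, 5.59%, 4.38% and 3.95% of the summed FPKM in the black and red forewing libraries, 0.00661% to 0.356% in the 4 early hind wing libraries, and 3.41% to 5.47% in the 6 late ones. Most of this came from c25846_g3, which alone held 2.50% to 4.28% of the sum in the late hind wings.

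**Figure D1:**
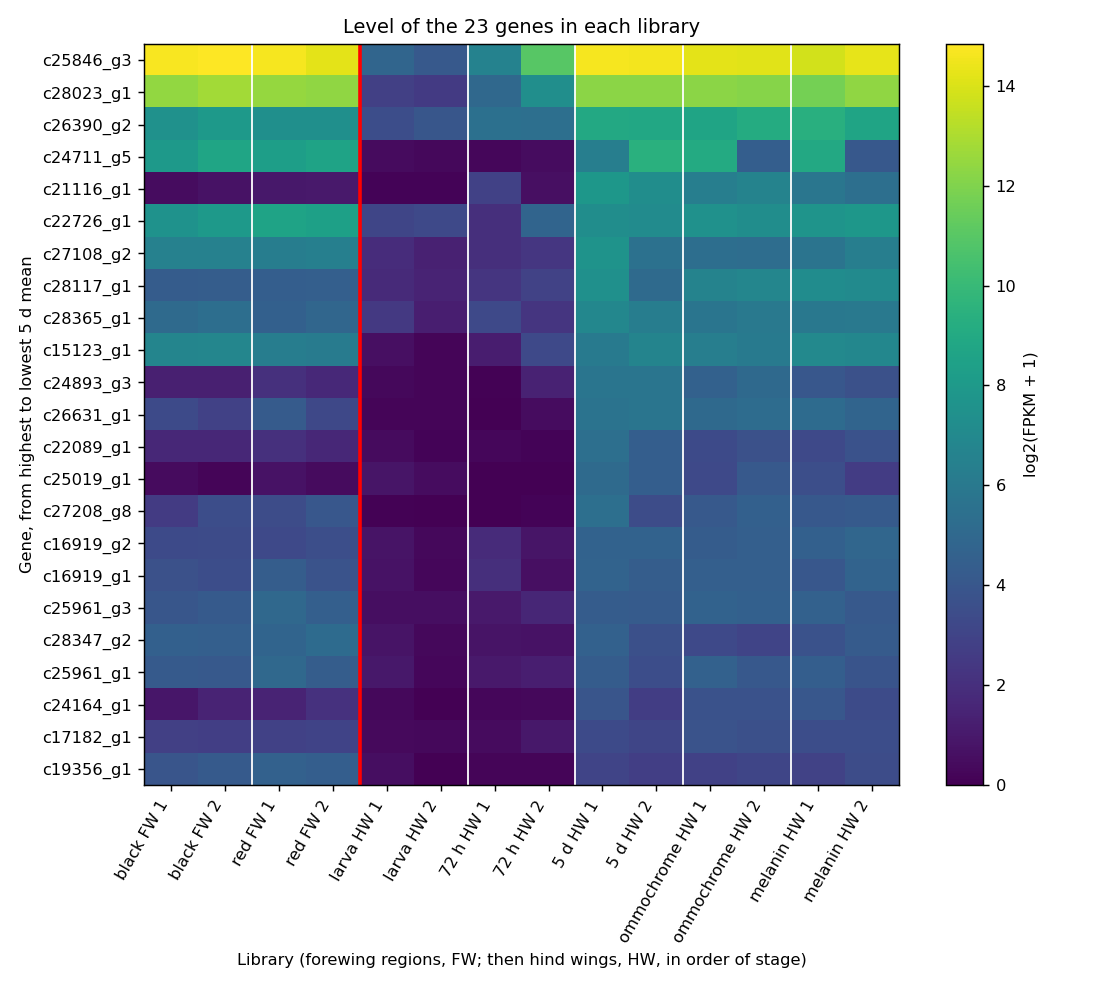
Level of the 23 genes, as log2(FPKM + 1) in colour, in each of the 14 libraries (columns; forewing regions left of the red line, hind wings by stage right of it), with genes (rows) ordered by their 5 d mean. In every row the larval and 72 h columns are darker than the 6 hind wing columns from 5 d onward; several rows, such as c21116_g1 and c25019_g1, are dark in the forewing columns.

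The other members ran down to a few FPKM. The medians over members of the larval, 72 h, 5 d, ommochrome and melanin means were 0.465, 1.49, 50.9, 27.97 and 25.6 FPKM. Among the 10780 genes that reached 1 FPKM in 2 or more libraries these medians were 10.2, 5.89, 5.22, 6.28 and 6.70 FPKM. Among the 4290 genes with at least 5 FPKM in all 6 late hind wing libraries they were 32.4, 18.0, 17.6, 21.4 and 23.5 FPKM. The conditions on the early and late stages fix these contrasts in part. In 20 of the 23 members the 72 h mean was above the larval mean, and in 9 all 4 early libraries were under 1 FPKM. Several of these means were very low, as in c26631_g1, at 0.15 FPKM in the larva and 0.21 at 72 h. Both stages entered the choice and the shares of all genes were not counted, so no early rise is read from this. Not all members were near 0 early on: 4 and 3 members reached 5 FPKM in the larval libraries and 5 and 6 in the 72 h libraries. The median ratio of the 5 d to the 72 h mean was 24.2 over the 22 members with a value above 0 at 72 h, from 9.90 in c22726_g1 to 1196 in c24711_g5. Gene c25019_g1 was listed at 0 in both 72 h libraries and had 33.99 and 20.6 FPKM at 5 d, against 0.8 and 0.39 FPKM in the larva. Gene c27208_g8 had 0 and 0.09 FPKM at 72 h and 41.6 and 10.1 at 5 d, so that its 5 d libraries stood far apart while both lay above every early library.

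Once on, the members took different courses within the allowed range. That range left more room for a fall after 5 d than for a rise, so the counts and the ratio given next are in part fixed by the choice. The shares of all genes were not counted, and no general trend after 5 d is read from these values. The highest late mean was that of 5 d in 13 members, of the ommochrome stage in 3 and of the melanin stage in 7. The ratio of the melanin to the 5 d mean ran from 0.253 to 1.47, with a median of 0.907. At the low end, c24893_g3 had 52.98, 53.3, 23.6, 32.3, 15.1 and 11.8 FPKM in the 5 d, ommochrome and melanin libraries, in pairs, and c21116_g1 had 226, 152, 80.7, 100.2, 56.8 and 41.4 FPKM. In each of these genes the values of the 3 stages did not overlap and were lower at each later stage. At the high end, c22726_g1 had 155, 142, 182, 153, 205 and 231 FPKM and c15123_g1 had 69.2, 103, 79.4, 67.6, 128 and 114 FPKM in the same order. The melanin libraries of c22726_g1 and of c15123_g1 lay above all earlier hind wing libraries of the same gene.

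Between the forewing regions the members were within 2-fold by choice, and 6 of the 23 had the higher mean in black, the other 17 in red. The libraries of the regions did not overlap in 16 members, with both black libraries above both red ones in 5 and below them in 11. Of all genes tested 7.01% lay above and 35.2% below in this way, and of the 4290 genes with the late hind wing floor, 4.92% and 45.5%; the choice used this contrast, so nothing is read from the counts. The highest ratio of black to red means was 1.49, in c15123_g1, with 106 and 112 FPKM in black and 75.9 and 70.4 FPKM in red regions. The lowest was 0.517, in c21116_g1, with 0.39 and 0.65 FPKM in black and 0.96 and 1.05 FPKM in red regions. Black and red regions are at different places in the wing, so that colour and position cannot be told apart.

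In the forewing, whose level was left free, the members split. All 4 forewing libraries reached 5 FPKM in 17 of the 23 members, and the forewing mean was at least 8 times the larger early hind wing mean in 16. The shares of all genes that did so were not counted, so these counts only describe the members. The ratio of the forewing mean to the mean of the 6 late hind wing libraries ran from 0.00696 to 2.61, with a median of 0.601. It was above 0.5 and below 2 in 11 members, 0.5 or less in 11 and at least 2 in 1. Of the 4290 genes that reached 5 FPKM in all 6 late hind wing libraries, 14.7% were at 0.5 or less, 7.32% at 2 or more, and the median ratio was 0.926. The late hind wing levels of the members were chosen to be high, by that floor and by the 8-fold limit over the early stages. The 4290 genes were chosen by the floor alone, so low ratios in the members are in part fixed by the choice. In 2 members, c21116_g1 and c25019_g1, the forewing mean was below the larger early hind wing mean. In whole wings and dissected regions alike, fewer cells of a type and less RNA per cell cannot be told apart, and wing, kind of dissection and, by one reading of the labels, stage differ together between forewing and hind wing.

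**Figure D2:**
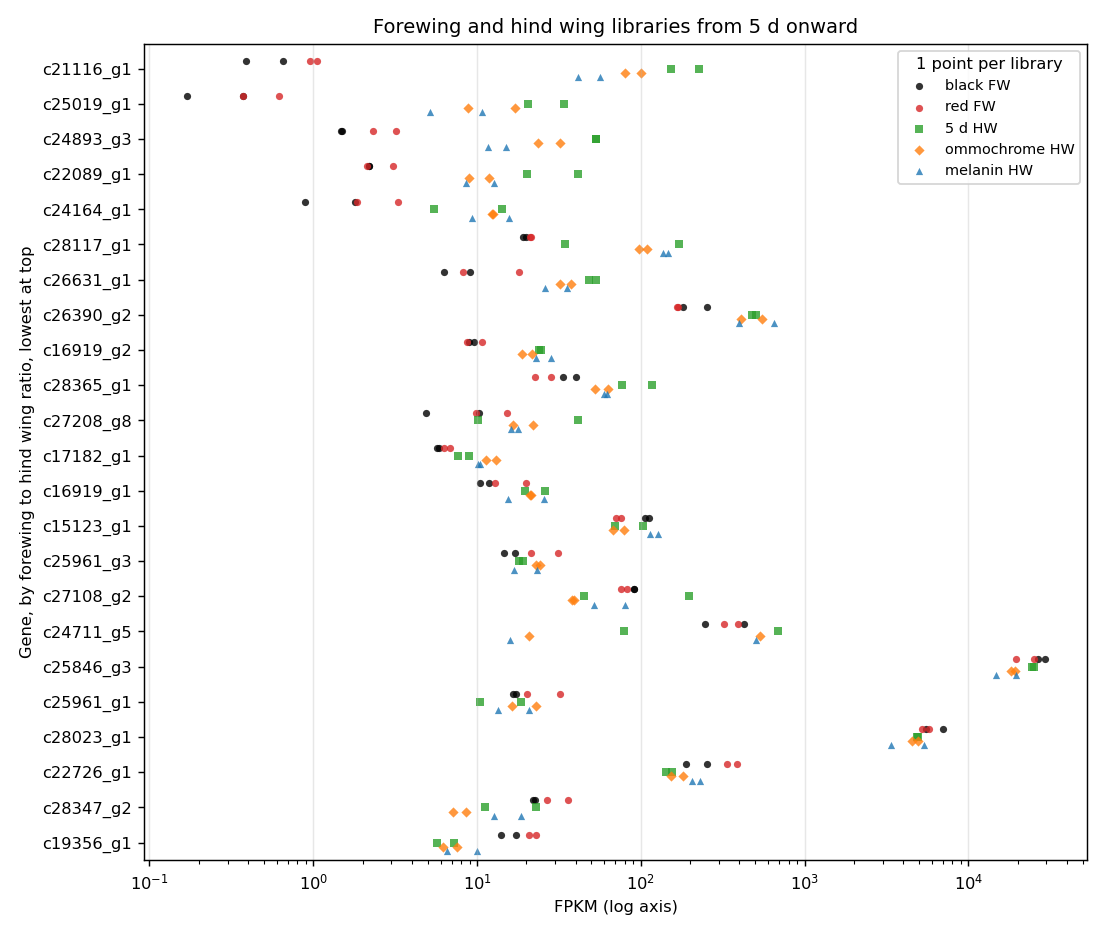
FPKM on a log axis (horizontal) of the 23 genes (rows, ordered by the ratio of the forewing mean to the mean of the 6 hind wing libraries from 5 d onward), with 1 point per library for black and red forewing regions and 5 d, ommochrome and melanin hind wings. At the top the forewing points of c21116_g1 lie between 0.39 and 1.05 FPKM, to the left of every hind wing point; at the bottom those of c19356_g1 lie to the right of its hind wing points.

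The 3 members with the lowest ratio of forewing to late hind wing had at most 3.22 FPKM in the forewing. Gene c21116_g1 had 0.39, 0.65, 0.96 and 1.05 FPKM in black and red forewing libraries, against 80.7 and 100.2 FPKM in ommochrome and 56.8 and 41.4 FPKM in melanin hind wings. No forewing library came near any late hind wing library, and the forewing was lower than the ommochrome hind wing (log2 difference -5.71, SE 0.493, limma adjusted p = 0.00012) and than the melanin hind wing (log2 difference -4.83, SE 0.493, limma adjusted p = 0.000253). Gene c25019_g1 had 0.37, 0.17, 0.62 and 0.37 FPKM in the black and red forewing libraries, against 8.75 and 16.98 FPKM in ommochrome and 10.8 and 5.16 FPKM in melanin hind wings. Its groups did not overlap, with the forewing lower against ommochrome (log2 difference -3.27, SE 0.336, limma adjusted p = 0.000346) and against melanin hind wings (log2 difference -2.63, SE 0.336, limma adjusted p = 0.000985). Gene c24893_g3 was at 1.47, 1.49, 3.22 and 2.31 FPKM in black and red regions, against 23.6 and 32.3 in ommochrome and 15.1 and 11.8 in melanin hind wings, again without overlap. These differences are on the log2(FPKM + 1) scale, which compresses the change of low genes.

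Further members were called lower in the forewing than in the hind wing at both pigment stages. Gene c28117_g1 had 19.1, 19.97, 21.03 and 21.2 FPKM in black and red forewing libraries, 4 values within a narrow band, against 97.6 and 109.6 FPKM in ommochrome and 146 and 136 FPKM in melanin hind wings. The forewing was lower than the melanin hind wing (log2 difference -2.73, SE 0.488, limma adjusted p = 0.00505) and than the ommochrome hind wing (log2 difference -2.29, SE 0.488, limma adjusted p = 0.0139). Its 5 d libraries, at 172 and 34.5 FPKM, were wide apart but both above the forewing. Gene c26390_g2 had 181, 255, 169 and 165 FPKM in black and red regions, against 408 and 552 in ommochrome and 649 and 397 in melanin hind wings, with no overlap and a forewing call of lower at both stages. Gene c26631_g1 averaged 10.4 ± 5.27 FPKM in forewings (SD, n = 4), and 34.7 ± 3.59 in ommochrome and 30.8 ± 6.59 in melanin hind wings (SD, n = 2 each). Gene c22089_g1 averaged 2.4 ± 0.46 FPKM in forewings, 10.4 ± 2.04 FPKM in ommochrome hind wings and 10.6 ± 2.85 FPKM in melanin hind wings. Gene c24164_g1 averaged 1.95 ± 0.99 FPKM in forewings, with 12.4 ± 0.22 and 12.5 ± 4.39 FPKM at the same hind wing stages. All 3 were called lower in the forewing against both stages. Several of these calls were lost in fits without melanin replicate 1 or without ommochrome replicate 1 or 2. In those fits calls over all genes fell too. They did not fall against the melanin stage without melanin replicate 2, a fit that also left 1 library in its group. Without melanin replicate 1 the calls against melanin of c28117_g1 (log2 difference -2.68), c26390_g2 (-1.06) and c26631_g1 (-1.35) were lost. With every library the differences of c26390_g2 and c26631_g1 were -1.42 and -1.56. Without ommochrome replicate 2 the calls against ommochrome of c28117_g1 (log2 difference -2.21), c26390_g2 (-1.10), c26631_g1 (-1.64) and c22089_g1 (-1.57) were lost. That of c28117_g1 was also lost without ommochrome replicate 1 (-2.38). With every library the ommochrome differences of c26390_g2, c26631_g1 and c22089_g1 were -1.32, -1.74 and -1.75. The melanin call of c26631_g1 was also lost with only the compared groups in the fit (-1.56, limma adjusted p = 0.0506).

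In the other direction, c19356_g1, the member of lowest 5 d mean, was higher in the forewing. It had 14, 17.2, 23.04 and 20.8 FPKM in black and red forewing libraries, against 6.23 and 7.52 FPKM in ommochrome and 6.58 and 9.98 FPKM in melanin hind wings. Every forewing library lay above every hind wing library, and the forewing was higher than the ommochrome hind wing (log2 difference 1.31, SE 0.231, limma adjusted p = 0.00572) and than the melanin hind wing (log2 difference 1.09, SE 0.231, limma adjusted p = 0.0107). These calls were lost with a pseudocount of 0.1 (limma adjusted p = 0.108 for ommochrome and 0.147 for melanin), without ommochrome replicate 1 (0.0731, for ommochrome) and without melanin replicate 1 (0.125, for melanin). Gene c28347_g2 had 22.6, 21.8, 26.6 and 36.03 FPKM in black and red regions, against 8.54 and 7.12 FPKM in ommochrome and 12.6 and 18.5 FPKM in melanin hind wings. Its forewing was higher than the ommochrome hind wing (log2 difference 1.63, SE 0.289, limma adjusted p = 0.00585), a call lost without ommochrome replicate 2 (limma adjusted p = 0.0822). Against the melanin hind wing the libraries did not overlap either, but the difference missed the threshold (log2 difference 0.74, SE 0.289, limma adjusted p = 0.0922), except with median-of-ratios or quantile scaling or with a 5 d library left out.

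**Figure D3:**
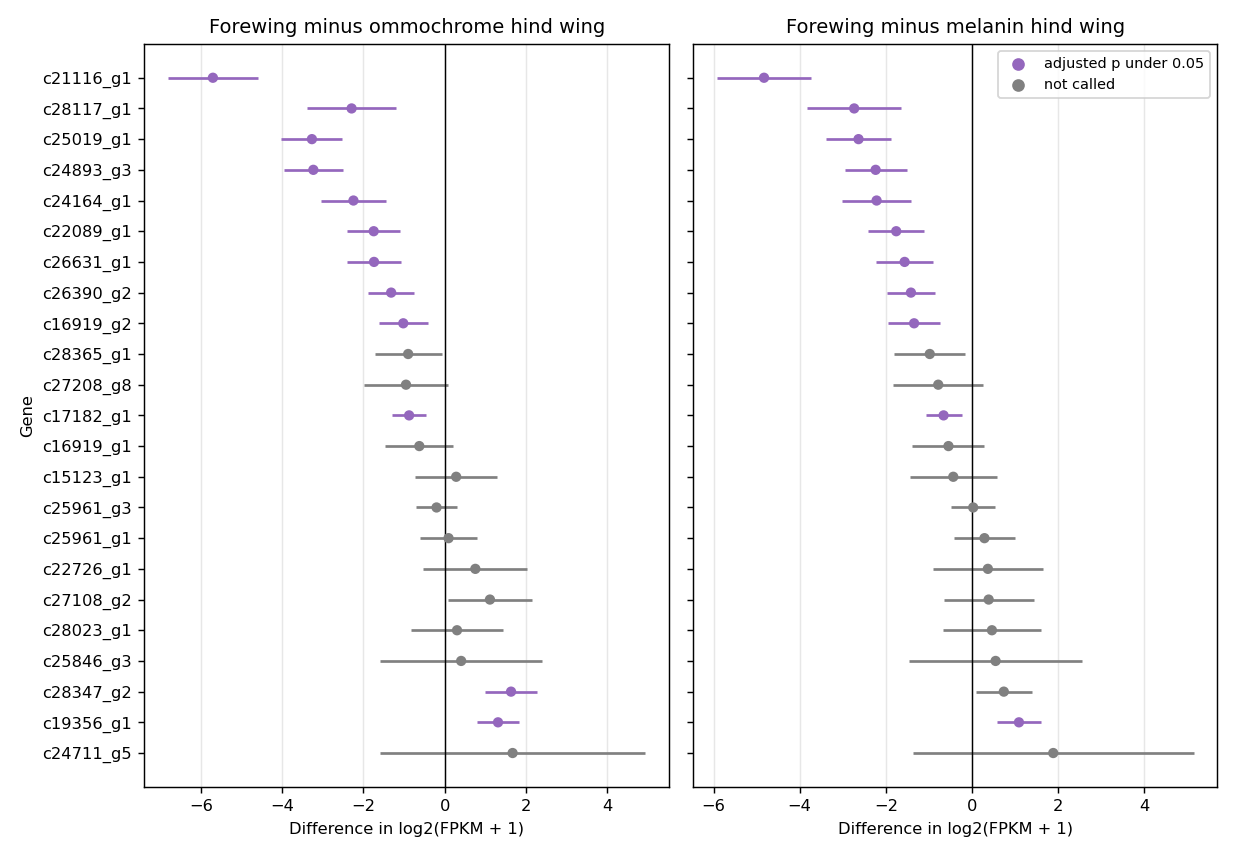
Difference of the forewing mean from the ommochrome hind wing mean (left) and from the melanin hind wing mean (right) in log2(FPKM + 1) for each of the 23 genes (rows), as a point with its 95% interval from the limma fit; purple marks an adjusted p under 0.05. In each panel 10 genes are purple left of 0, and 2 (left panel) or 1 (right panel) right of it; the interval of c24711_g5 is the widest.

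Each of the 23 members passed the filter on low values, as the floor in the late hind wings ensured. Gene c25019_g1 passed it only through those hind wings, with every other library under 1 FPKM. Over all 23 members, 2 were called higher and 10 lower in the forewing than in the ommochrome hind wing. Against the melanin hind wing, 1 was called higher and 10 lower. The same 10 were lower against both stages. Of all genes tested, 5.58% were called higher and 9.14% lower in the forewing against the ommochrome stage, and 6.03% higher and 15.2% lower against the melanin stage. Among the 4290 genes with the same floor in the late hind wings these shares were 5.90% and 10.1% against the ommochrome stage, and 4.85% and 17.4% against the melanin stage. The ommochrome and melanin hind wing libraries entered the choice of members through that floor, the 8-fold limit over the early stages and the 5 d ratios. A direction toward lower forewing values is therefore in part fixed by the choice. Only 109 of the 4290 genes also met the 8-fold limit, so their shares are not those of a set matched to the members. The median log2 difference of the members was -0.88 against the ommochrome stage and -0.66 against the melanin stage, beside -0.15 and -0.21 for all genes tested. All 4 forewing libraries lay below both melanin hind wing libraries in 13 members and above them in 2, where 33.6% and 16.5% of all genes tested did so, and 36.6% and 18.0% of those with the floor. Against the ommochrome stage 13 members lay below and 6 above, where 34.3% and 19.1% of all genes tested did so, and 31.4% and 25.4% of those with the floor. Without melanin replicate 1, which listed the most genes at 0, fewer members and fewer of all genes tested were called against the melanin stage. The same held against the ommochrome stage without ommochrome replicate 2. The median log2 difference was then -0.85 for members and -0.12 for all genes tested against the melanin stage. Against the ommochrome stage it was -0.76 and -0.18. With median-of-ratios factors 12.9% of all genes tested were higher and 10.6% lower against the melanin stage, and 10.9% and 8.56% against the ommochrome stage; the members then stood at 2 higher and 9 lower against each. The calls of c21116_g1, c25019_g1, c24893_g3 and c24164_g1 against both stages were kept in all of the fits tried. Their membership was less firm. Genes c21116_g1 and c25019_g1 each fell outside the conditions under 7 alternatives to the rule, and c24893_g3 and c24164_g1 under 5 each. With median-of-ratios factors c21116_g1, c25019_g1 and c24893_g3 were not members.

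Many members could not be told apart between the wings at this spread. Gene c25846_g3 had a log2 difference of 0.55 (95% interval -1.45 to 2.55) from the melanin hind wing and c28023_g1 one of 0.47 (95% interval -0.67 to 1.60). In both genes the 4 forewing libraries lay above both ommochrome libraries, but the fit shares 1 spread over all groups, including the 72 h libraries that differed 21.5-fold and 5.18-fold. Gene c22726_g1 had 189, 255, 388 and 338 FPKM in black and red forewing libraries, above 182 and 153 FPKM in the ommochrome hind wings (log2 difference 0.75, SE 0.575, limma adjusted p = 0.407). It was called higher than the ommochrome hind wing without 72 h replicate 1 (limma adjusted p = 0.0171), without 72 h replicate 2 (0.0170), without both, a fit chosen after the data were seen (0.0172), and with only the compared groups in the fit (0.0333). Gene c27108_g2 had 90.5, 90.7, 75.9 and 82.8 FPKM in black and red regions, against 39.3 and 38.1 FPKM in ommochrome and 51.9 and 80.1 FPKM in melanin hind wings. It had 198 and 44.9 FPKM at 5 d, and without either 5 d library the forewing was called higher than the ommochrome hind wing (limma adjusted p = 0.0132), as it was with only the compared groups in the fit (0.00295). Gene c15123_g1 averaged 91.1 ± 20.9 FPKM in forewings (n = 4), 73.5 ± 8.35 in ommochrome and 121 ± 9.28 in melanin hind wings. Its black regions were near the melanin values and its red regions near the ommochrome values, but all 4 forewing libraries lay below both melanin libraries. It was called lower than the melanin hind wing only in the fit to the compared groups alone (limma adjusted p = 0.0471). Genes c28365_g1 and c27208_g8 had all 4 forewing libraries below both ommochrome and both melanin libraries without a call: c28365_g1 averaged 31.2 ± 7.55 FPKM in forewings, 58.1 ± 7.54 and 61.1 ± 1.73 in those hind wings. In other fits c28365_g1 was called lower, against both stages with equal FPKM totals (limma adjusted p = 0.0268 for ommochrome and 0.0424 for melanin), with the top genes left out (0.0261 and 0.0380) and with only the compared groups (0.0171 and 0.0220). Against the melanin stage it was also called with a pseudocount of 5 (limma adjusted p = 0.0335), without larval replicate 1 (0.04998) and without either or both 72 h libraries (0.0455 to 0.0459). The values of c27208_g8 were 4.89, 10.3, 9.84 and 15.3 FPKM in black and red forewing libraries, 16.6 and 22.04 in ommochrome and 16.1 and 17.7 in melanin hind wings.

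Gene c24711_g5 stood out by its replicates. It had 248 and 429 FPKM in black and 323 and 395 in red forewing libraries, and in hind wings 0.36 and 0.24 in larvae, 0.22 and 0.42 at 72 h, 78.8 and 687 in 5 d pupae, 533 and 20.7 in ommochrome pupae and 503 and 15.9 in melanin pupae. The replicates of the late hind wing stages thus differed 8.72-fold, 25.8-fold and 31.6-fold, while the forewing libraries lay within 247.6 to 429 FPKM. Over all members the median ratio of the higher to the lower replicate was 1.49 for 5 d, 1.19 for ommochrome and 1.38 for melanin hind wings, and c24711_g5 had the highest ratio at each. At the ommochrome stage no other member, and at the melanin stage 1 other member, had replicates at least 2-fold apart. No comparison of its forewing and hind wing levels is firm: its difference from the melanin hind wing was 1.89 (95% interval -1.37 to 5.15) log2. It met the conditions by its means, and fell outside them without 5 d replicate 2, ommochrome replicate 1 or melanin replicate 1.

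An assembled component is a cluster of overlapping sequences that the assembler could not separate, often copies or variants of related genes, and reads can be divided between its genes. The 23 members came from 21 components, and 10 members shared their component with another gene of the table, as did 34.5% of all genes. Components c16919 and c25961 each gave 2 members. Genes c16919_g1 and c16919_g2 had 25.9, 19.5, 21.4, 21.1, 15.5 and 25.7 and 24.03, 24.8, 18.7, 21.8, 22.9 and 28.4 FPKM in the 5 d, ommochrome and melanin hind wings, in pairs. In forewings c16919_g2 had 8.98, 9.52, 8.69 and 10.7 FPKM in black and red regions and was lower than in melanin hind wings (log2 difference -1.34, SE 0.272, limma adjusted p = 0.00908). Its call against the ommochrome hind wing (log2 difference -1.02, SE 0.272, limma adjusted p = 0.0342) was lost with median-of-ratios or quantile scaling, a pseudocount of 0.1, or an ommochrome or forewing library left out. Gene c16919_g1 had 11.9, 10.5, 19.9 and 12.9 FPKM in black and red regions and was not called against either stage; the difference between these 2 genes was not tested. Genes c25961_g1 and c25961_g3 had close values throughout, at 17.3, 16.6, 31.9 and 20.2 and 14.7, 17.1, 31.2 and 21.5 FPKM in black and red forewing libraries, and at 18.6, 10.4, 23.1, 16.3, 20.8 and 13.5 and 18.98, 17.9, 24.2, 22.8, 23.3 and 16.9 FPKM in the late hind wings. Neither was called between the wings, and the log2 difference from the melanin hind wing was 0.29 (95% interval -0.41 to 1.00) and 0.03 (95% interval -0.48 to 0.54).

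**Figure D4:**
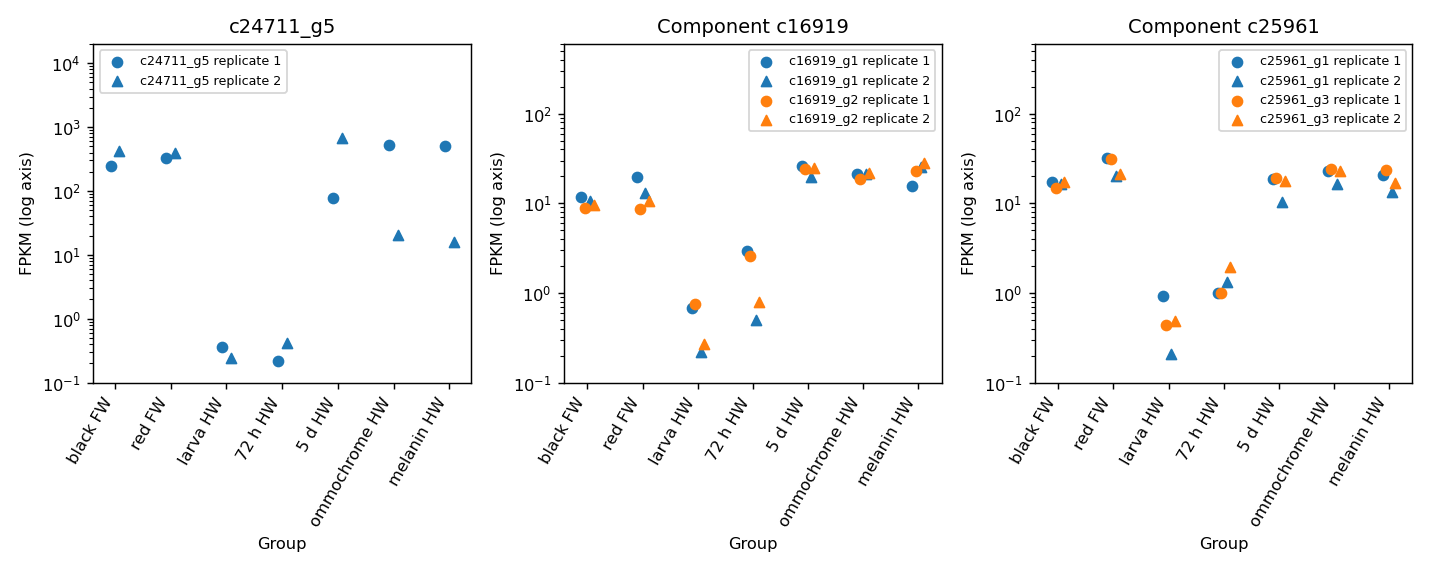
FPKM on a log axis (vertical) by group (horizontal; forewing regions first, then hind wings by stage) for c24711_g5 and for the members of components c16919 and c25961, with circles for replicate 1 and triangles for replicate 2. The late hind wing replicates of c24711_g5 lie up to 31.6-fold apart, and the genes of each shared component have similar levels in the late hind wings.

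Of the 9 genes that shared a component with a member without being members, 0 reached 5 FPKM in all 6 late hind wing libraries, and 1 had each late mean at least 8 times the larger early mean. That gene, c25846_g1, named after its values were seen, followed c25846_g3 at a far lower level, with 2.83, 2.95, 1.24 and 1.4 FPKM in black and red forewing libraries, 0 in both larval libraries, 0.07 and 0.19 at 72 h and 2.22, 0.97, 2.52, 1.58, 1.7 and 1.75 in the late hind wings. The partners of c24711_g5 had other courses: c24711_g10 averaged 163 FPKM at 72 h and 3.71 at the melanin stage, while c24711_g2 averaged 41.7 in black and 57.0 in red forewing regions, and 17.9 in melanin hind wings.

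The last member, c17182_g1, had 5.89, 5.68, 6.32 and 6.8 FPKM in black and red forewing libraries, against 13.1 and 11.3 in ommochrome and 10.4 and 10.1 in melanin hind wings, with no overlap. Its forewing was lower by a small margin (log2 difference -0.88, SE 0.187, limma adjusted p = 0.0139 for ommochrome; log2 difference -0.66, SE 0.187, limma adjusted p = 0.0339 for melanin). The melanin call was lost with median-of-ratios factors (limma adjusted p = 0.156), quantile scaling or a pseudocount of 0.1, and also without any 1 of the ommochrome, melanin or forewing libraries. The ommochrome call was lost with a pseudocount of 0.1 (limma adjusted p = 0.0617), without ommochrome replicate 1 (0.137) and without ommochrome replicate 2 (0.0858).

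The 6 genes left out only by the forewing condition show what that condition removed, and were named after their values were seen. Gene c2767_g1 had 20.2, 8.36, 15.7, 17.3, 17.2 and 18.6 FPKM in the late hind wings, while its forewing libraries held 0, 0, 0 and 0.2 FPKM in black and red regions. Gene c25203_g1 averaged 100.5 FPKM in black and 334 in red regions, and 554, 322 and 441 at 5 d, ommochrome and melanin. Gene c17202_g1 averaged 7.72 FPKM in black and 28.7 in red regions, gene c23703_g1 34.2 and 72.7, gene c20886_g1 2.97 and 6.57, and gene c25758_g1 1.16 and 3.1, so that in each of the 6 the black mean was the lower. Lower black values were common: both black libraries lay below both red ones in 35.2% of all genes tested, and above in 7.01%. The libraries of c25758_g1 overlapped, at 0.89 and 1.42 FPKM in black and 0.29 and 5.91 in red regions. Nothing is read from this direction.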

How the data were processed

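RNA was measured in 14 libraries of Vanessa cardui wings, 2 in each of 7 groups, by 150 bp paired-end sequencing of poly-A RNA, per the labels' protocols. Bowtie is the aligner named, without a version, per the submitters' processing notes, and the series title speaks of a de novo transcriptome. The authors deposited FPKM per gene and library, rounded to 2 decimals. Their tool and settings were not given in the sources used here. Because each library is scaled to its own total, a rise of abundant genes lowers the other values. Read totals are unknown, and an attempt to recover relative depths from the steps of low values failed on simulated data.

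Values were analysed as log2(FPKM + 1). Genes that reached 1 FPKM in 2 or more libraries (10780) were fitted with limma 3.58.1 in R 4.3.3, with 7 group means, no covariate and a prior spread that followed mean expression (7 residual and 2.88 prior degrees of freedom). The mean of the black and red forewing groups was compared with the ommochrome hind wing and with the melanin hind wing in 2 two-sided tests. Benjamini-Hochberg adjustment ran over all 10780 genes in each test, and calls needed an adjusted p under 0.05. The model was tested on simulated data. Python 3.11.15 with pandas 2.3.3, NumPy 2.4.6 and matplotlib 3.10.9 served for the rest.

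The members and comparisons were chosen with earlier results of these data known. Genes named are the called members of largest change without overlap, the highest, the extremes of each ratio, those nearest each limit and those sharing a component; the remaining members are named to account for all 23. Lists of pigment, cuticle, scale and other cell type markers could not be applied without gene names. Other pseudocounts, filters, scalings, thresholds, sets of libraries and a replicate term were tried.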

Additional observations from a re-analysis of the deposited data

How the results depend on the processing

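The number of genes meeting the conditions was 42 with median-of-ratios factors, 26 with equal FPKM totals, 38 with a limit of 4-fold and 9 with 16-fold, and 20 to 32 with a single library left out, the highest without 72 h replicate 2, which lost 4 of the 23 and gained 13. Leaving out 5 d replicate 1 or melanin replicate 1 lost 6 of the 23 each, as did a floor of 10 FPKM, and median-of-ratios factors lost 3. Only 6 members were kept with each of the 14 libraries left out, and 2, c25846_g3 and c28023_g1, under every alternative to the rule. Against the melanin hind wing, 0 members were called higher with a pseudocount of 0.1 (limma, 9 lower) and 2 with median-of-ratios or quantile scaling (9 lower each); with single libraries left out, 0 to 2 were higher and 6 to 11 lower, where all genes called numbered 554 to 3050, against 2290 with every library. The highest number, 2, came without either 5 d library, and 0 and 6 came without melanin replicate 1. Against the ommochrome hind wing, 1 was called higher with a pseudocount of 0.1 and 4 in a fit to the compared groups alone; with single libraries left out, 1 to 3 were higher and 4 to 10 lower, with 1 higher without either ommochrome library, where all genes called numbered 373 to 2348, against 1586 with every library. Median-of-ratios scaling moved the median of all genes from -0.21 to 0.01 log2 against the melanin stage, and that of the members from -0.66 to -0.38. In no fit did a called member change direction. The cause of these changes was not tested. Leaving out the 10 top genes of each library removes c25846_g3 from the fit.

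The labels give replicate numbers but do not say that they pair libraries. Deviations of same-numbered libraries correlated at 0.43 between black and red regions, and between -0.05 and 0.04 for either region with the ommochrome or melanin hind wings. With a replicate block, 1 member was higher and 10 were lower against the melanin stage, 2 higher and 10 lower against the ommochrome stage, and no member's call changed. That block is shared by all groups, so it cannot take up a link between black and red libraries alone, and nothing is concluded from it. The tests and the SDs took the 4 forewing libraries as independent. If same-numbered black and red libraries share animals, the standard errors may be too small. Fits without a hind wing library assume that the lone library varies like the other groups.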

Other observations

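Within the larva, replicate 1 had the higher value in 19 of the 23 members and replicate 2 in 3, where replicate 1 was higher in 45.7% and replicate 2 in 49.1% of all genes tested. The larval values behind this are mostly under 1 FPKM. At 72 h replicate 2 was the higher in 14 members and replicate 1 in 7, against 46.2% and 49.0% of all genes. At 72 h the replicates of 13 members were at least 2-fold apart, as were those of 33.2% of all genes tested. At 5 d replicate 1 was the higher in 18 members, and in 68.3% of all genes tested.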
